A study of Homo sapiens with 10 samples.

Results

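The genes described are those that bring glucose into cells of the human acute T-lymphoblastic leukaemia line MOLT-4 and commit it to glycolysis: the transporters SLC2A1 and SLC2A3, the hexokinases HK1 and HK2, the regulators PFKFB3 and PFKFB4, and TXNIP, an inhibitor of uptake. Members were all probe sets that the platform annotation assigns to 1 of these 7 symbols, of 11963 genes named in this way on the array. They numbered 13 probe sets, of which 7 probe sets of 6 genes passed the filter on low signals and were tested. The other 6, among them the only probe set of PFKFB4, are given by level. The cells were treated with MABL, an antibody against CD47, and 2 Affymetrix arrays were made at each of 0 h, 0.5 h, 1 h, 3 h and 6 h. For all 10 samples, those of 0 h included, the labels list MABL at 10 ug/mL together with GAM, an abbreviation they leave unexplained, at 50 ug/mL. No untreated array of the later times was analysed here, so antibody, GAM, time in culture and handling cannot be told apart in a difference from 0 h. The 4 comparisons with 0 h share the same 2 control arrays. No label ties the replicates to separate cultures, so the p-values measure the spread between these samples only, which may be technical. With 2 arrays per time, the number of arrays limits the precision.

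Glucose crosses the plasma membrane through facilitative transporters of the SLC2A family and is trapped inside the cell when a hexokinase phosphorylates it. The PFKFB enzymes make and break fructose 2,6-bisphosphate, the strongest allosteric activator of phosphofructokinase, and PFKFB3 strongly favours its synthesis. TXNIP is an arrestin-like protein that binds thioredoxin and promotes removal of SLC2A1 and other transporters from the cell surface, and its transcription follows glucose through the sensors MLXIP and MLXIPL with their partner MLX.

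Levels below are square roots of the deposited scores read as log2 expression. This scale was read from the range of the values and is not stated by the authors, and each log2 change or fold depends on it. A probe set was tested where at least 2 of the 10 arrays reached log2 5. A change was called where limma's adjusted p (Benjamini-Hochberg over all 4276 tested probe sets) was under 0.05, and errors are SDs over n = 2 arrays or SEs of the fit. Replicate arrays correlated at 0.991 to 0.994 over probe sets. Of 16 T-lineage markers 15 were on the array, and 11 of these reached log2 5 on all 10 arrays, among them CD3D at 12.24 to 12.54 and LCK at 10.20 to 10.58, while CD7, CD2 and CD4 stayed below it. No B cell, myeloid, erythroid or epithelial marker reached that level on any array. Of 4 fibroblast markers 1 did, COL1A1, at 5.06 to 5.49 on all 10 arrays, and no marker of any list was at 0. The ribosomal RNA control probe sets averaged 9.03 ± 0.88 at 0 h and 11.67 ± 0.49 at 6 h, those of the spike-in controls averaged 10.00 ± 0.29 and 10.63 ± 0.032, and the summed T-lineage markers at 101.6 to 101.7 and 98.5 to 99.0. The median of the tested probe sets was 6.96 at 0 h and 6.83, 6.67, 6.65 and 6.71 at the 4 later times. Setting all array medians equal moved the calls at 3 h from 108 higher and 1128 lower to 987 and 760, at 6 h from 174 and 925 to 613 and 603, and at 1 h from 177 and 1036 to 1389 and 834. No member change that was called reversed its sign with equal medians. The part of these array differences in the members' changes was not tested.

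TXNIP RNA stood highest at 0.5 h and was low by 3 h. PFKFB3 and SLC2A3 were called higher at 3 h and at 6 h. HK1 and HK2 were called higher at 6 h, with 3 h levels close to those of 0 h, and so was SLC2A1, whose 3 h arrays lay between those of 0 h and 6 h without a call. In limma's F test 39.6% of all tested probe sets varied with time, and all 7 of these did. For SLC2A1, SLC2A3 and TXNIP that says little, since they passed the filter only through the times at which they were high. PFKFB3, HK1 and HK2, which 9 or 10 of the 10 arrays put at the filter, had adjusted p of 0.000148, 0.00324 and 0.000795.

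**Figure D1:**
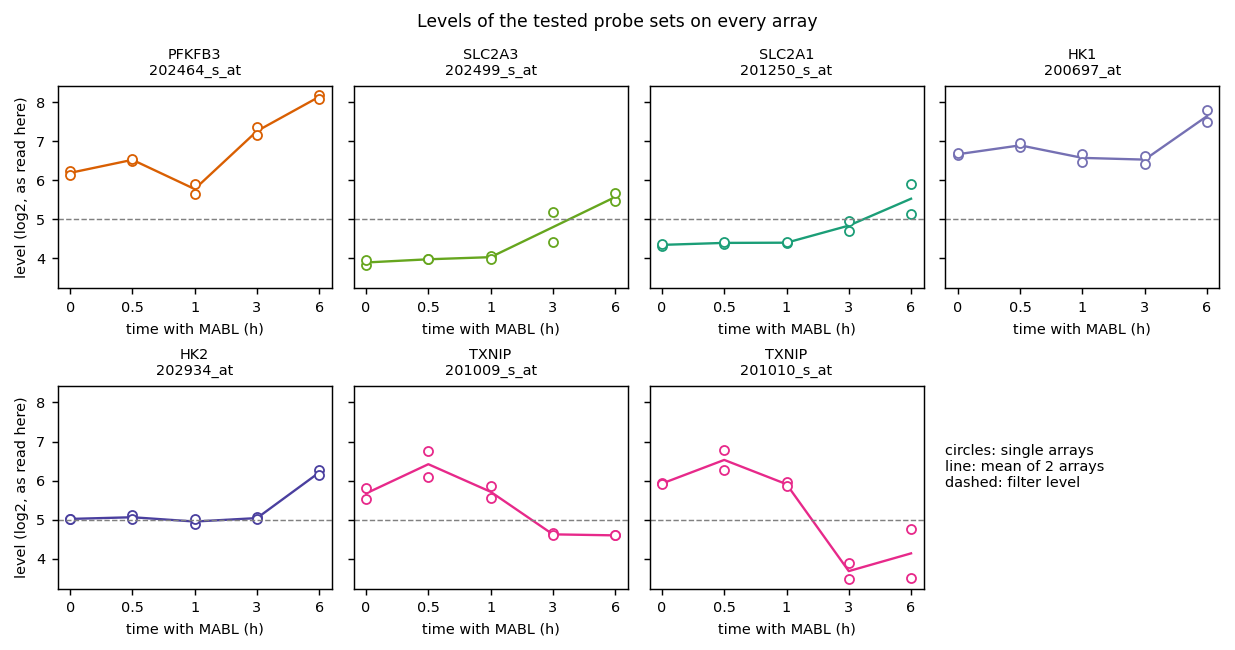
Level of each tested probe set (log2 as read here, vertical axis) on every array against time with MABL in hours (horizontal axis, evenly spaced steps). Circles are single arrays, lines join the means of 2 arrays and the dashed line is the filter level of log2 5; PFKFB3 reached 8.09 and 8.19 at 6 h, and both TXNIP probe sets lay under the dashed line at 3 h and 6 h.

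TXNIP is read by 3 probe sets, of which 201009_s_at and 201010_s_at were tested. On 201009_s_at the level was 5.53 and 5.82 at 0 h, 6.75 and 6.09 at 0.5 h, 5.87 and 5.56 at 1 h, 4.65 and 4.60 at 3 h, and 4.60 on both arrays at 6 h. Both arrays of 3 h and of 6 h were below every earlier array. On 201010_s_at the level was 5.94 and 5.90 at 0 h, 6.78 and 6.28 at 0.5 h, 5.95 and 5.86 at 1 h, 3.47 and 3.89 at 3 h, and 3.51 and 4.76 at 6 h. Here too every array of 3 h and 6 h lay below every earlier one, although the 6 h arrays lay far apart. The dimmer 201008_s_at was not tested: it stood at 2.52 on both 0 h arrays, 3.70 and 3.06 at 0.5 h, and 1.91 to 2.49 at 3 h and 6 h. All 3 probe sets therefore had their highest level on an array of 0.5 h, and the 1 h arrays were back near those of 0 h.

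TXNIP fell on both tested probe sets at 3 h, by 1.05 on 201009_s_at (SE 0.212, adjusted p = 0.0091) and with a change of -2.24 on 201010_s_at (SE 0.362, adjusted p = 0.00426), a level lower by a factor of 4.73. At 6 h TXNIP fell by 1.07 (adjusted p = 0.00922) on 201009_s_at and differed from 0 h by -1.79 (adjusted p = 0.01) on 201010_s_at. Between 3 h and 6 h the differences were -0.03 and 0.45, neither of them called. The step from 1 h to 3 h was called on both, at -1.09 (adjusted p = 0.0355) and -2.23 (adjusted p = 0.0238). At 0.5 h 201009_s_at rose by 0.75 (SE 0.212, adjusted p = 0.0466) and 201010_s_at stood 0.60 higher (adjusted p = 0.323). The 0.5 h call rested on the 0.5 h replicate at 6.75: without it the change was 0.42 (adjusted p = 0.185), and 9 of the 10 fits that left out 1 array lost the call, with adjusted p from 0.0613 to 0.26; the exception left out the other 0.5 h array.

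The low levels of TXNIP at 3 h and 6 h lie under the filter, where differences are less certain. With all values raised to a floor of log2 5, the 3 h decrease was -0.67 (adjusted p = 0.0496) on 201009_s_at and -0.92 (adjusted p = 0.00482) on 201010_s_at. On 201010_s_at the 3 h call was kept whichever array was left out, whereas the 6 h call was lost without 0 h replicate 1 (adjusted p = 0.065) and the 6 h value was -1.16 without 6 h replicate 1. On 201009_s_at leaving out 0 h replicate 2 ended the calls at 3 h (adjusted p = 0.0511) and 6 h (adjusted p = 0.0515). There the 3 h call was also lost when 3 h replicate 2 was left out (adjusted p = 0.0525), and the 6 h call when 6 h replicate 1 was (adjusted p = 0.0507) and with the floor (-0.67, adjusted p = 0.0512). The step from 1 h to 3 h was lost in 8 of 10 such fits on 201009_s_at (adjusted p 0.0558 to 0.174) and on 201010_s_at without either 1 h array (adjusted p = 0.12 and 0.0962) or without 3 h replicate 1 (adjusted p = 0.0765). In bulk RNA, fewer cells with a transcript and less of it per cell cannot be told apart.

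Promoter windows from RefSeq (GRCh38.p14), 250 bases before to 50 after a start, were searched on both strands for ACGTG, the core bound by hypoxia-inducible factors, for CACGTG, an E-box that contains that core, and for CACGNG followed after any 5 bases by a second CACGNG, a pair of E-box-like sites. The last pattern was written knowing that TXNIP carries a carbohydrate response element of this kind, so its presence there is no finding. Of 35116 windows of 300 bases, 21.4% held the first, 7.26% the second and 0.057%, or 20 windows, the third. Of the members, 6 had windows, 15 in all. The 250 bases before 1 of the 2 TXNIP starts (chr1:145996580-145996829, minus strand) are shown because they hold the spaced pair, in capitals, beginning 88 bases upstream of the start. The window of the other TXNIP start held ACGTG, 162 bases upstream.
TXNIP: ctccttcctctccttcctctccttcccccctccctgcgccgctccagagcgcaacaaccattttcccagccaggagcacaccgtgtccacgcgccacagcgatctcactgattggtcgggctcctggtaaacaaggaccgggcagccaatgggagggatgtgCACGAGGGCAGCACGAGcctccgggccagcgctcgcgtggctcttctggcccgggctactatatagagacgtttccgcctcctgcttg

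PFKFB3, the regulator that raises fructose 2,6-bisphosphate, had the largest 6 h rise of the 7 tested probe sets. Its probe set 202464_s_at stood at 6.24 and 6.14 at 0 h, 6.50 and 6.55 at 0.5 h, 5.89 and 5.66 at 1 h, 7.36 and 7.16 at 3 h, and 8.19 and 8.09 at 6 h. No 2 neighbouring times overlapped: the level was lowest at 1 h and then higher at each step. PFKFB3 rose by 1.07 at 3 h (SE 0.121, adjusted p = 0.00198), or 2.10-fold, and by 1.95 at 6 h (adjusted p = 0.000178), or 3.86-fold. Both steps on the way were called, 1.49 from 1 h to 3 h (adjusted p = 0.00245) and 0.88 from 3 h to 6 h (adjusted p = 0.00609). These 4 calls were kept whichever array was left out and under every scale, scaling, filter and floor tried.

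Before this rise, PFKFB3 stood 0.33 above 0 h at 0.5 h (adjusted p = 0.103) and fell by 0.42 at 1 h (adjusted p = 0.0354). Both depended on the scaling. With equal array medians the change at 0.5 h was 0.46 (adjusted p = 0.0256) and that at 1 h -0.13 (adjusted p = 0.404). Leaving out 0 h replicate 1 also ended the 1 h call (-0.37, adjusted p = 0.171), as did leaving out 0 h replicate 2 (-0.47, adjusted p = 0.0728), either array of 0.5 h (adjusted p = 0.0539) or replicate 2 of 1 h (-0.30, adjusted p = 0.187). The difference between 0.5 h and 1 h was -0.75, with an unadjusted p of 0.000258 and an adjusted p of 0.0874. PFKFB4, the paralogue, was read by 206246_at at 2.41 to 2.47 on all 10 arrays, far under the filter, so no course could be measured for it.

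Of the 2 PFKFB3 windows 1 held an E-box, and its 250 bases before the start (chr10:6202682-6202931, plus strand) are shown with CACGTG in capitals, 108 bases upstream; the RefSeq window of PFKFB4 held none of the 3 motifs. A match in a window is a description of its letters and not of binding.
PFKFB3: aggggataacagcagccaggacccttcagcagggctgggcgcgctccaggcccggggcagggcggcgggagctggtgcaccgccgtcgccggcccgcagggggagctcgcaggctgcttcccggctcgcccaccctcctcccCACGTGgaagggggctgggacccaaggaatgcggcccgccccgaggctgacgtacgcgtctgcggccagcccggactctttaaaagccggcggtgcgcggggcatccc

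Transporter RNA was low at the start and higher late. SLC2A3 encodes GLUT3, a high-affinity transporter, and SLC2A1 encodes GLUT1, the transporter of most proliferating cells. On 202499_s_at SLC2A3 stood at 3.83 and 3.96 at 0 h, 3.98 on both arrays at 0.5 h, 4.07 and 3.99 at 1 h, 4.41 and 5.19 at 3 h, and 5.48 and 5.66 at 6 h. Both 3 h arrays were above all earlier ones and below both 6 h arrays. SLC2A3 rose by 0.90 at 3 h (SE 0.219, adjusted p = 0.0181) and by 1.68 at 6 h (SE 0.219, adjusted p = 0.00226), or 3.19-fold. Neither the step from 1 h to 3 h nor that from 3 h to 6 h was called, at 0.77 each (adjusted p = 0.0927 and 0.0757). The 3 h call was lost when replicate 1 of 0 h (adjusted p = 0.107) or its replicate 2 (adjusted p = 0.0526) was left out, and without 3 h replicate 2 the 3 h change was 0.52 (adjusted p = 0.0469). The step from 1 h to 3 h was 1.15 (adjusted p = 0.024) without 3 h replicate 1, and that from 3 h to 6 h 1.16 (adjusted p = 0.00965) without 3 h replicate 2.

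SLC2A1 on 201250_s_at stood at 4.32 and 4.37 at 0 h, 4.38 and 4.41 at 0.5 h, 4.39 and 4.42 at 1 h, 4.71 and 4.97 at 3 h, and 5.91 and 5.15 at 6 h. The 8 arrays of the first 4 times were below log2 5 and both 6 h arrays above it. SLC2A1 rose by 1.18 at 6 h (SE 0.219, adjusted p = 0.0073), or 2.27-fold, with a 95% interval of 0.68 to 1.69. At 3 h it stood 0.49 above 0 h (adjusted p = 0.131) without overlap of the arrays. That difference was called with equal array medians (0.80, adjusted p = 0.0222), with a repeated quantile normalization (0.69, adjusted p = 0.0471) and without either 6 h array (adjusted p = 0.02). The 6 h call was lost without 0 h replicate 1 (1.15, adjusted p = 0.0523), and the step from 3 h to 6 h, 0.69 (adjusted p = 0.104), was called at 1.07 without 6 h replicate 2 (adjusted p = 0.0147).

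Both transporters entered the test only through their late arrays, 2 of 10 at the filter for SLC2A1 and 3 of 10 for SLC2A3, so that a difference over time was built into their selection. With a floor at log2 5 the 6 h change was 0.53 for SLC2A1 (adjusted p = 0.101) and 0.57 for SLC2A3 (adjusted p = 0.00558), and that of SLC2A3 at 3 h was 0.09 (adjusted p = 0.536). With no filter the 6 h change of SLC2A1 had an adjusted p of 0.0571 and the 3 h change of SLC2A3 one of 0.115.

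The remaining transporter probe sets did not pass the filter and were not tested. SLC2A3 202497_x_at ran from 2.46 and 2.57 at 0 h through 3.94 and 3.36 at 3 h to 5.22 and 3.89 at 6 h. Its means at these times had the same order as those of 202499_s_at, but its 3 h and 6 h arrays overlapped. SLC2A3 202498_s_at stayed between 3.06 and 3.26. The 2 probe sets shared with SLC2A14, whose protein is nearly identical, cannot be assigned to 1 gene. One of these, 216236_s_at, stood at 2.81 and 2.66 at 0 h, 3.69 and 3.49 at 3 h, and 3.39 and 3.47 at 6 h. The other, 222088_s_at, stayed between 3.74 and 3.96 on all arrays, and its differences from 0 h were 0.12 at 3 h and 0.11 at 6 h. The second SLC2A1 probe set, 201249_at, stayed between 2.34 and 2.49.

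**Figure D2:**
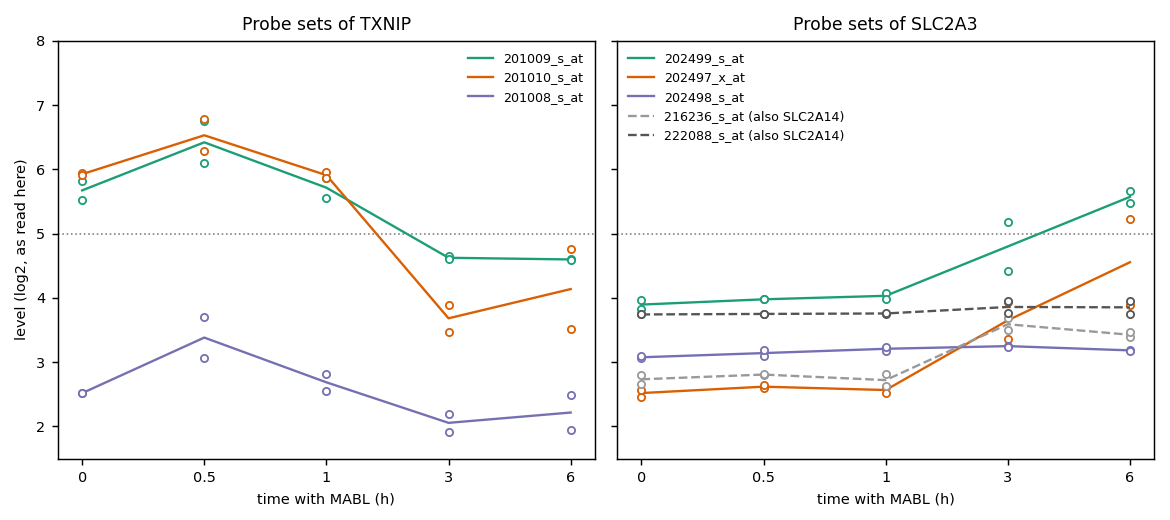
Level of every probe set of TXNIP (left) and SLC2A3 (right) in log2 as read here, against time with MABL in hours. Circles are single arrays, lines join means of 2 arrays, dashed lines are probe sets shared with SLC2A14 and the dotted line is the filter level; the 3 TXNIP probe sets have their highest mean at 0.5 h, and 2 of the 3 probe sets of SLC2A3 alone are higher at 3 h and 6 h than before.

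Both hexokinases were higher at 6 h and close to their starting level at 3 h. HK1, the broadly expressed isoform, stood on 200697_at at 6.65 and 6.69 at 0 h, 6.84 and 6.95 at 0.5 h, 6.68 and 6.47 at 1 h, 6.63 and 6.42 at 3 h, and 7.48 and 7.80 at 6 h. Both 6 h arrays were above every other array. The first 4 times lay between 6.42 and 6.95, with both 0.5 h arrays above the rest of these. HK1 rose by 0.97 at 6 h (SE 0.141, adjusted p = 0.00306), or 1.96-fold. At 3 h it differed from 0 h by -0.14, with a 95% interval of -0.46 to 0.19.

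HK2, the inducible isoform bound to mitochondria in many tumour cells, stood on 202934_at at 5.01 and 5.03 at 0 h, 5.12 and 5.00 at 0.5 h, 4.88 and 5.02 at 1 h, 5.08 and 5.00 at 3 h, and 6.26 and 6.15 at 6 h. The 8 earlier arrays spanned 4.88 to 5.12 and the 6 h pair stood clear of them. HK2 rose by 1.19 at 6 h (SE 0.102, adjusted p = 0.000621), or 2.28-fold, and at 3 h it differed from 0 h by 0.02, with a 95% interval of -0.21 to 0.26. The step from 3 h to 6 h was called for both genes, at 1.11 for HK1 (adjusted p = 0.00469) and 1.17 for HK2 (adjusted p = 0.00095). These 4 calls held whichever array was left out and under each alternative that tested the genes. The second HK2 probe set, 222305_at, was under the filter and stayed between 3.48 and 3.82.

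Both RefSeq windows of HK2 held ACGTG, 1 of them as 2 E-boxes, while the 7 windows of HK1 and the window of SLC2A1 held none of the 3 motifs. The HK2 stretches before each start (chr2:74833877-74834126 and chr2:74834920-74835169, plus strand) are shown because they differ from HK1 in this respect although both genes were higher at 6 h. Capitals mark CACGT, the reverse complement of the core, 229 and 48 bases before the first start, and CACGTG 194 and 149 bases before the second.
HK2 first start: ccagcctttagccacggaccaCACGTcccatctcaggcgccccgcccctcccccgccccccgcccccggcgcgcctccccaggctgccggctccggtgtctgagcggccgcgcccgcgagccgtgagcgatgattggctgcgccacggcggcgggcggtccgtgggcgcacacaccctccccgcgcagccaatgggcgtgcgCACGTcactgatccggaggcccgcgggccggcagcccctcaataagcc
HK2 second start: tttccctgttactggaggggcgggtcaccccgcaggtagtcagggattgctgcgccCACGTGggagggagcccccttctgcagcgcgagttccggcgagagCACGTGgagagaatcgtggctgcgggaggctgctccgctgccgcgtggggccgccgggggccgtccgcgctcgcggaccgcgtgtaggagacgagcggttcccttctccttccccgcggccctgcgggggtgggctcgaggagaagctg

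Set in order of time, 1 of the 7 tested probe sets was called higher at 0.5 h (TXNIP 201009_s_at) and none lower, where 1.92% of all tested probe sets were called higher and 15.1% lower. At 1 h PFKFB3 was lower and none was higher, with 4.14% of all higher and 24.2% lower. At 3 h PFKFB3 and SLC2A3 were higher and both TXNIP probe sets lower, with 2.53% and 26.4% of all. Without 0 h replicate 2, limma called 2 of these 4. At 6 h 5 probe sets were higher, those of both transporters, both hexokinases and PFKFB3, and both of TXNIP lower, with 4.07% and 21.6% of all. The filter had selected the transporters and TXNIP partly for such changes, so these counts describe the probe sets and do not set them apart. The median change of all tested probe sets was -0.15 at 3 h and -0.14 at 6 h.

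Between successive times, limma called none of the 7 from 0.5 h to 1 h (2 at an unadjusted p under 0.05), where 0.0234% of all were called in each direction. From 1 h to 3 h PFKFB3 was higher and both TXNIP probe sets lower, with 1.94% and 1.82% of all. Without either 1 h array, 1 of these 3 was called. From 3 h to 6 h HK1, HK2 and PFKFB3 were higher, with 5.00% higher and 2.08% lower of all. By the submitters' rule that both replicates lie past 2 or 0.5 times the 0 h mean, both TXNIP probe sets passed at 3 h, where 0.304% of all passed upward and 6.69% downward. At 6 h SLC2A3, HK2 and PFKFB3 passed upward and TXNIP downward, with 0.935% and 4.09% of all. The filter had selected SLC2A3 and TXNIP partly for such changes, so the counts that include them do not set the probe sets apart.

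**Figure D3:**
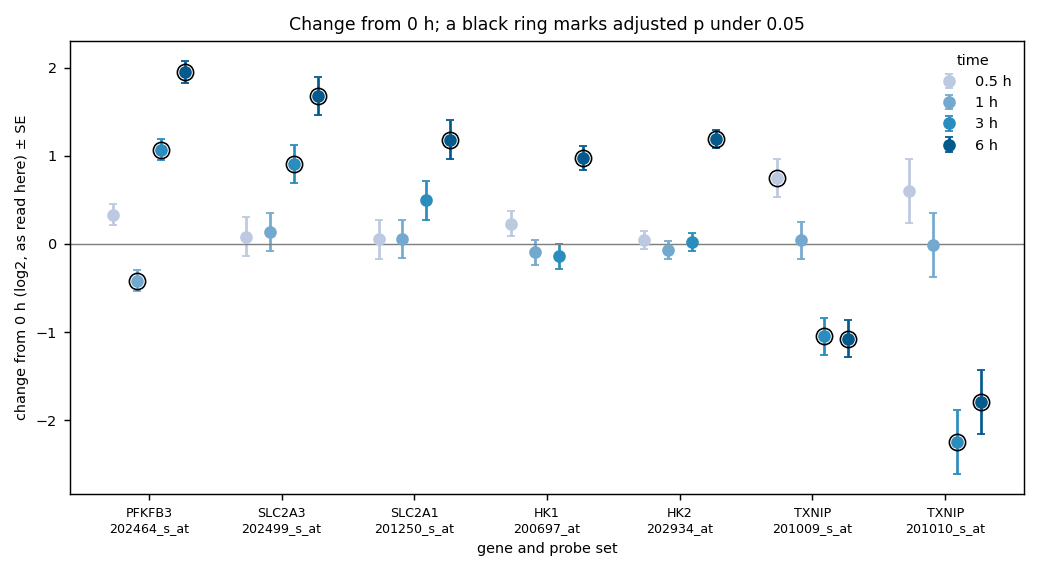
Change from 0 h (log2 as read here, vertical axis, with SE) for each tested probe set (horizontal axis) at 0.5 h, 1 h, 3 h and 6 h, from light to dark; black rings mark adjusted p under 0.05. At 3 h HK1 and HK2 lie at -0.14 and 0.02 while PFKFB3 is at 1.07 and TXNIP at -1.05 and -2.24; at 6 h all points are ringed.

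The share of the 6 h change present at 3 h is a description, given for the genes measured near or above the filter level at all times. It was 54.9% for PFKFB3, 1.84% for HK2 and -14.1% for HK1. For the transporters, which lay below that level at the earlier times, it depends on the floor. Without it the 3 h and 6 h changes were 0.90 and 1.68 for SLC2A3 and 0.49 and 1.18 for SLC2A1. With it they were 0.09 and 0.57 for SLC2A3, and SLC2A1, under the floor on both 3 h arrays, had 0 at 3 h and 0.53 at 6 h. TXNIP was below the level at both 3 h and 6 h, so its share is not given. The place of the transporters between PFKFB3 and the hexokinases therefore rests on signals below the filter level. Differences between genes on the same array do not depend on a common shift of the array. From 0 h to 3 h, PFKFB3 gained 1.21 on HK1 (1.13 to 1.28 over the 4 pairs of arrays) and 1.05 on HK2 (0.92 to 1.17). From 0 h to 6 h, HK2 gained 0.22 on HK1, with pairs on both sides of 0 (-0.01 to 0.44). These ranges are descriptions over arrays and were not tested.

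Over the 10 arrays, HK1 and HK2 had a correlation of 0.914, SLC2A1 and SLC2A3 one of 0.897, SLC2A3 and PFKFB3 one of 0.894, PFKFB3 and TXNIP one of -0.723 and HK1 and TXNIP one of -0.310. Among 621 genes whose time means spanned at least 1, those most like each member by Pearson's r over these arrays were named. For HK2 they were BHLHE40 (0.993), ADM (0.979) and HILPDA (0.975), and for HK1 BEND5 (0.952), MKNK2 (0.952) and JAM3 (0.947). For SLC2A1 they were EFNA4 (0.974), HILPDA (0.914) and SLC2A3, and for SLC2A3 EFNA4 (0.936), JUND (0.919) and EFNA3 (0.904). For PFKFB3 they were GNA15 (0.906), HILPDA (0.901) and BNIP3 (0.900), and for TXNIP WSB2 (0.971), RFC5 (0.962) and UBAP2L (0.930). All values share the same arrays, and both likeness and correlation are descriptions.

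Counts for the other genes of the pathway are read against all tested probe sets, of which 4.07% were higher and 21.6% lower at 6 h, and 2.53% and 26.4% at 3 h. Of 15 other hexose transporters 11 were on the array and 1 was tested, SLC50A1, a Golgi sugar transporter, which differed from 0 h by -0.01 at 6 h. Of 16 other sugar kinases, phosphofructokinase subunits and opposing phosphatases 4 were tested. PFKM, the muscle subunit of phosphofructokinase, was the only one of these with a call: it fell by 0.47 at 3 h (adjusted p = 0.0294). Its changes at 6 h (-0.43, adjusted p = 0.0437) and from 1 h to 3 h (-0.65, adjusted p = 0.0371) were also called. With equal array medians its 3 h and 6 h changes were -0.16 and -0.18, both uncalled. In fits without 1 array the 3 h call was lost in 3 of 10, the 6 h call in 7 and that from 1 h to 3 h in 8. The median of these 4 at 6 h was -0.17, and 0.08 with equal medians.

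Of 24 genes for the steps below phosphofructokinase and for lactate export 13 were tested. At 6 h 4 were higher and 1 lower, with a median of 0.36 against -0.14 for all tested probe sets. ALDOC, an aldolase, rose by 1.05 (adjusted p = 0.00389) and PGAM1, phosphoglycerate mutase, by 0.67. ALDOA and TPI1, named after their values were seen, rose by 0.62 and 0.41. Without 0 h replicate 1 the ALDOC call was kept and that of PGAM1 lost (adjusted p = 0.0564), and those of ALDOA and TPI1 were lost in 3 and 6 of 10 fits without 1 array. With equal array medians 11 of the 13 were higher and none lower, with a median of 0.61. In that setting 613 of all tested probe sets were higher and 603 lower. LDHB, a lactate dehydrogenase subunit, fell by 0.95 at 0.5 h, by 1.13 at 1 h and by 0.76 at 3 h, each kept whichever array was left out, and its smaller decrease at 6 h was lost in 8 of 10 fits. LDHA, the other main subunit, fell by 0.58 at 0.5 h, by 0.79 at 1 h and by 0.44 at 3 h, and rose by 0.69 from 3 h to 6 h. Of these the 1 h call was kept whichever array was left out, and the others were lost in 2, 5 and 3 of 10 fits.

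Of 15 relatives of TXNIP, thioredoxins and glucose-sensing factors 10 were on the array and 6 tested. At 6 h 3 were lower and none higher, with a median of -0.51 and 21.6% of all probe sets lower. With equal medians 2 were lower and 1 higher, where 603 of all tested probe sets were lower and 613 higher. MYC, a transcription factor that drives glycolytic genes, fell by 0.66 at 3 h and by 1.33 at 6 h. TXNRD1, thioredoxin reductase, fell by 1.65 at 6 h. It was already called lower at 0.5 h (-0.76), 1 h (-0.71) and 3 h (-0.74). These earlier TXNRD1 calls were lost in 3, 3 and 2 of 10 fits without 1 array. The MYC and 6 h TXNRD1 calls were kept whichever array was left out. MLX, the partner of the glucose sensors, fell by 0.63 at 6 h, a call lost with equal medians (-0.38, adjusted p = 0.057) and when replicate 1 of 0 h was left out (adjusted p = 0.0591). TXN2, the mitochondrial thioredoxin, was the 1 gene of this list called higher at 3 h (0.53); it was named after its value was seen, and its call was lost in 4 of 10 fits.

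Of 22 genes of the pentose phosphate, hexosamine and glycogen branches 8 were tested, and at 6 h 1 was lower and none higher, where 21.6% of all probe sets were lower, with a median of -0.02 (0.23 with equal medians). At 0.5 h, 1 h and 3 h 2 were lower each time and none higher. Of all tested probe sets 15.1%, 24.2% and 26.4% were lower at these times, so the counts do not set these genes apart. OGT, the O-GlcNAc transferase, fell by 2.31 at 1 h, kept whichever array was left out, and UGP2, which makes UDP-glucose, fell by 1.52 at 3 h, lost in 2 of 10 fits without 1 array. With the floor neither was called, at -0.16 and -0.25. RPIA, an isomerase of the pentose phosphate route, fell by 0.94 at 6 h, kept whichever array was left out. None of 9 HIF subunits and oxygen-sensing hydroxylases on the array was tested, so their course could not be measured, and the 1 tested gene among AMPK subunits and AKT kinases, PRKAB1, differed by -0.21 at 6 h. Of 19 other textbook targets of HIF-1 7 were tested. At 6 h 6 of these were higher and none lower, also with equal medians and with a repeated quantile normalization, with a median of 3.02. Of all tested probe sets, these rescalings called 613 and 477 higher. ADM, a peptide hormone, rose by 5.21, BHLHE40, a transcriptional repressor, by 3.59, and BNIP3, a mitophagy receptor, by 3.02. With the floor these were 3.10, 1.27 and 2.70. All of these lay below log2 5 at 0 h and passed the filter through later arrays at which they were high. A rise was thus partly built into the count for this list, which does not set its genes apart. DDIT4, an inhibitor of mTORC1, rose by 2.67 at 3 h and by 3.40 at 6 h, after it fell by 1.33 at 0.5 h. ADM was also called higher at 3 h, by 0.84, but not with the floor or without 0 h replicate 1 (adjusted p = 0.106), and BNIP3 fell by 1.51 at 1 h, where the floor left a change of 0. P4HA1 and BNIP3L, named after their values were seen, rose by 2.53 and 1.39, the latter call lost in 5 of 10 fits without 1 array. The other tested gene of the list, TFRC, the transferrin receptor, was lower at 0.5 h, 1 h and 3 h, with changes of -1.11, -1.12 and -1.18, the first of them uncalled in 2 of 10 fits; it too was named after its values were seen.

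**Figure D4:**
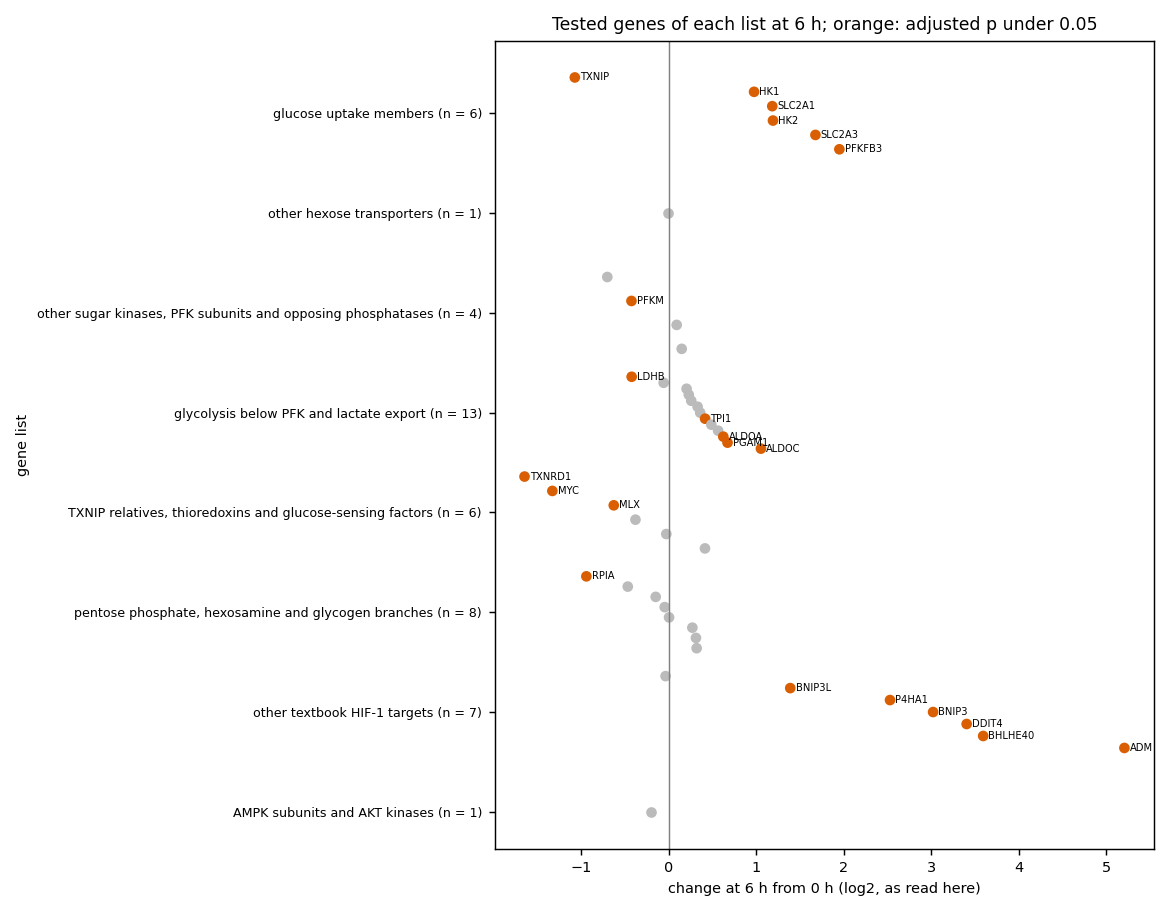
Change at 6 h from 0 h (log2 as read here, horizontal axis) of every tested gene of each list (rows, brightest probe set per gene, n in the row label); orange points have adjusted p under 0.05 and carry names. The 6 members lie between -1.07 (TXNIP) and 1.95 (PFKFB3), and 6 of the 7 other HIF-1 targets are higher, up to 5.21 for ADM.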

How the data were processed

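Total RNA of 10 MOLT-4 samples was hybridised to Affymetrix arrays. Each probe set has 1 score per array, deposited by the authors after GCRMA, as named in the submitters' processing notes; its version and the scale are not given in the sources used here. GCRMA corrects background by probe sequence, which pulls dim signals together, and normalizes between arrays, which can hide a shift common to all genes. In the deposited values the median of the tested probe sets still differed between times, at 6.96 at 0 h and 6.65 at 3 h. Scores ran from 1.25e-05 to 238.1, and their square roots were read as log2. Of 22283 probe sets, 68 controls were left out and 4276 of the other 22215 (19.2%) were tested. Symbols came from the platform annotation, updated through RefSeq: 19071 probe sets had 1, 1043 several and 2169 none.

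One limma 3.58.1 model in R 4.3.3 (lmFit, eBayes) held time as its factor over all arrays (5 residual and 3.06 prior degrees of freedom) and was tested on simulated data. Each list was represented by the brightest probe set per gene, and up to 4 genes with the largest F among those called were named; likeness was ranked over genes whose means spanned at least 1, and the 3 highest were named. Members, lists and tests were chosen with earlier results of these data known. Replicate numbers were not taken as pairs: deviations of same-numbered arrays correlated at -0.231 to 0.147 over 10 pairs of times. These correlations cannot show whether same-numbered arrays came from the same culture. Alternatives were other scales, scalings, filters and a floor, eBayes with a trend, a replicate block and leaving out each array.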

Additional observations from a re-analysis of the deposited data

How the results depend on the processing

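Of 19 called changes of members, 10 kept direction and call in every alternative that tested them: those of HK1, HK2 and PFKFB3 at 3 h and later, the 6 h change of SLC2A3 and the 3 h change of TXNIP on 201010_s_at. SLC2A3 and TXNIP passed the filter only through the times at which they were high. A difference was thus partly built into their calls. Precision was limited by 2 arrays per time, by levels under log2 5 and by the scale. A filter at log2 7 leaves only HK1 and PFKFB3 of the members to test, and no filter adds dim probe sets to the adjustment; other causes were not tested.

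Member calls against 0 h numbered 1 (0.5 h), 1 (1 h), 4 (3 h) and 7 (6 h); leaving out 1 array gave 0 to 1, 0 to 1, 2 to 5 and 5 to 7. At 0.5 h the count was 0 with log2 of the scores, no filter or the log2 7 filter, and 2 with equal medians, quantile normalization or the floor. At 1 h it was 0 with untransformed scores, equal medians, quantile normalization or no filter. With no filter it was 2 at 3 h and 4 at 6 h, and with the log2 7 filter 1 and 2. From 0.5 h to 1 h 0 were called (1 with the log2 7 filter; 0 without each array in turn). From 1 h to 3 h 3 were called (1 to 3 without 1 array; 1 with no filter or the log2 7 filter). From 3 h to 6 h 3 were called (3 to 4), and by F 7 (2 with the log2 7 filter). Past the fold rule were 0 at 0.5 h (0 to 1 without 1 array), 2 at 3 h (1 to 3; 1 with log2 of the scores; 0 with the log2 7 filter or floor) and 5 at 6 h (4 to 6; 0 with log2 of the scores, 1 with the log2 7 filter, 2 with the floor).

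Over all probe sets, 728 were called at 0.5 h (128 to 792 without 1 array; 307 with no filter; 475 with the log2 7 filter) and 1213 at 1 h (656 to 1203; 2223 with equal medians; 1873 with quantile normalization; 767 with the log2 7 filter). At 3 h 1236 were called (429 to 1187; 680 with no filter) and at 6 h 1099 (426 to 1187; 676 with no filter). From 0.5 h to 1 h 2 were called (1 to 2; 1 with log2 of the scores; 5 with no filter; 10 with the log2 7 filter). From 1 h to 3 h 161 were called (12 to 130; 77 with log2 of the scores; 401 with equal medians; 323 with quantile normalization; 21 with no filter; 279 with the log2 7 filter), and from 3 h to 6 h 303 (142 to 369; 526 with equal medians; 521 with quantile normalization; 114 with no filter).

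With a replicate block, which the numbers do not support as a pairing, the calls of the members were 0 at 0.5 h and otherwise the same in number, the 0.5 h change of TXNIP had an adjusted p of 0.0508, and over all probe sets 738, 1197, 1247 and 1137 were called at the 4 later times and 1 from 0.5 h to 1 h.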
